A study of Homo sapiens with 6 samples.

Results

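The RNA that a control rabbit serum recovers from the free 40S fraction is described here beside the RNA of that fraction itself. The members are 4 of the 6 libraries of the series, chosen by their titles: 2 RNA immunoprecipitates with normal rabbit serum in place of a specific antibody (IgG IP) and 2 Input libraries, which had no immunoprecipitation. The other 2 libraries came from an immunoprecipitation with an antibody against the RNA-binding protein LARP1. They entered the filter of tested genes, the scaling between libraries and the estimate of the spread. Beyond that they appear only in a few comparisons named as such. All libraries came from HCT116, a human colorectal carcinoma cell line, with no genotype change or treatment named in the labels. The labels call the fraction both free 40S and 40S monosome, and they call the libraries of a group biological replicates without saying what separates them, so every p-value reflects only how far these libraries differ, which may be technical.

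The 40S particle is the small ribosomal subunit, and a sucrose gradient separates free small subunits from whole ribosomes and polysomes by sedimentation. A band of the gradient holds every particle of similar size, so its RNA is a mixture of the subunit's own RNA, RNA bound to it and RNA of other particles that sediment alike. In an RNA immunoprecipitation the control serum has no intended target and the RNA it brings down is the background against which a specific antibody is read. Libraries were made without poly(A) selection, so RNA with and without a poly(A) tail could be counted.

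Genes are identified here by the Ensembl IDs of the files. No symbols come with these IDs, and the RefSeq gene table at hand named 0 of the 60554, so no symbol, gene type, length, position or sequence is given and the markers of colon epithelium and of other cell types were not looked up. The values are raw read counts per gene. Each library had 6424655 to 8069554 counts, and 15798 to 18016 genes had at least 1 count. A count of 0 allows a share of up to 4.67e-05% of a library. Intervals and limits given here cover counting error only.

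In both groups 2 genes held most of the counts assigned to genes, but in opposite order. ENSG00000210082.2 took 58.2% and 59.2% of the counts of Input replicates 1 and 2, against 30.4% and 30.7% of IgG IP replicates 1 and 2. ENSG00000211459.2 took 30.4% and 28.7% of the Input counts, against 40.5% and 40.8% of the IgG IP counts. The first gene was therefore the more abundant in both Input libraries and the second in both IgG IP libraries, with no overlap between the groups for either gene. Each of these shares rests on at least 1842952 counts, and the Wilson 95% intervals were narrow, such as 30.36% to 30.43% for the first gene in IgG IP replicate 1.

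The ratio of these genes within a library does not depend on how libraries are scaled to each other. The first gene had 1.91 and 2.06 times the counts of the second in the Input libraries and 0.7512 and 0.7517 times in those of the IgG IP, so the mean ratio was 1.99 ± 0.11 in Input and 0.751 ± 0.00036 in the IgG IP (SD, n = 2 each). In the LARP1 IP libraries it was 0.935 and 0.710, also below both Input libraries. The difference between Input and the IgG IP exceeded the spread between replicates, and the exact permutation test of 2 libraries against 2 gave a two-sided p of 0.33, the smallest it can give.

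**Figure D1:**
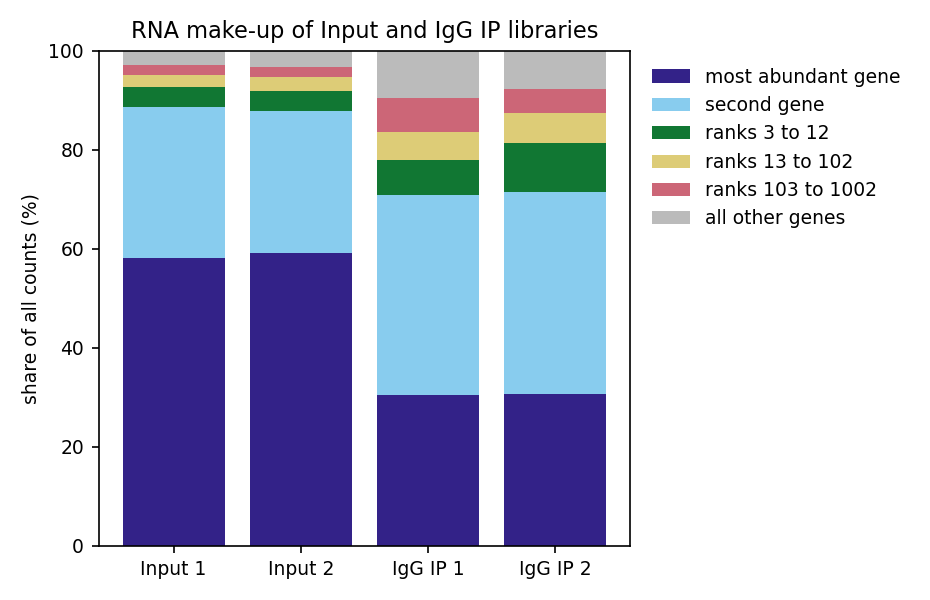
Share of all counts (%) in each Input and IgG IP library, stacked by gene band; bands after the second gene are ranked by mean share over the 4 libraries. The 2 most abundant genes took 88.6% and 87.9% of the Input libraries and 70.9% and 71.5% of the IgG IP libraries, and every other band was wider in the IgG IP.

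The counts outside these genes made up a larger part of the IgG IP than of Input. The IgG IP replicates had 2144182 and 2299877 such counts, 28.8% ± 0.46 of all counts (SD, n = 2). The Input replicates had 752862 and 778680, or 11.7% ± 0.54, so the share was 2.46 times as large in the IgG IP. Every band of less abundant genes took part: the genes ranked 3 to 12 by mean share took 8.47% ± 2.0 of the IgG IP and 3.98% ± 0.036 of Input, the next 90 genes took 5.82% ± 0.22 and 2.70% ± 0.16, the next 900 took 5.91% ± 1.4 and 2.02% ± 0.067, and all others 8.62% ± 1.3 and 3.03% ± 0.28 (SD, n = 2 each). Because shares sum to 100%, a lower share of the first gene raises all others, so these shares do not show how much RNA of any gene was recovered.

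Within the counts outside the 2 genes, the division among bands was as follows. The genes ranked 3 to 12 held 24.3% and 34.6% of these counts in the IgG IP, while the Input replicates had 34.8% and 33.0%, and IgG IP replicate 2 lay between the Input libraries. The genes ranked 13 to 102 held 19.4% and 21.0% in the IgG IP, below the 22.8% and 23.2% in Input. The genes ranked 103 to 1002 held 23.6% and 17.4% in the IgG IP, with 17.4% and 17.1% in Input, and replicate 1 of the IgG IP stood above the rest. The genes beyond rank 1002 held 32.7% and 27.1% in the IgG IP, against 24.98% and 26.66% in Input, with IgG IP replicate 1 farthest from the others. The 2 IgG IP libraries differed from each other in this division by more than the Input libraries did.

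The 10 most abundant genes were nearly the same in both groups: 9 genes were in both lists, and the union held 11. Outside the first and second gene, 7 of these 11 lay lower in the IgG IP relative to the bulk of genes and 2 lay higher. Relative to the bulk means after scaling by TMM, the trimmed mean of M values, which sets the level of most genes equal between libraries. None of the 9 passed the threshold, an edgeR quasi-likelihood test over all 10788 tested genes with a Benjamini-Hochberg adjusted p of 0.05, by which 0% of genes were called in either direction.

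**Figure D2:**
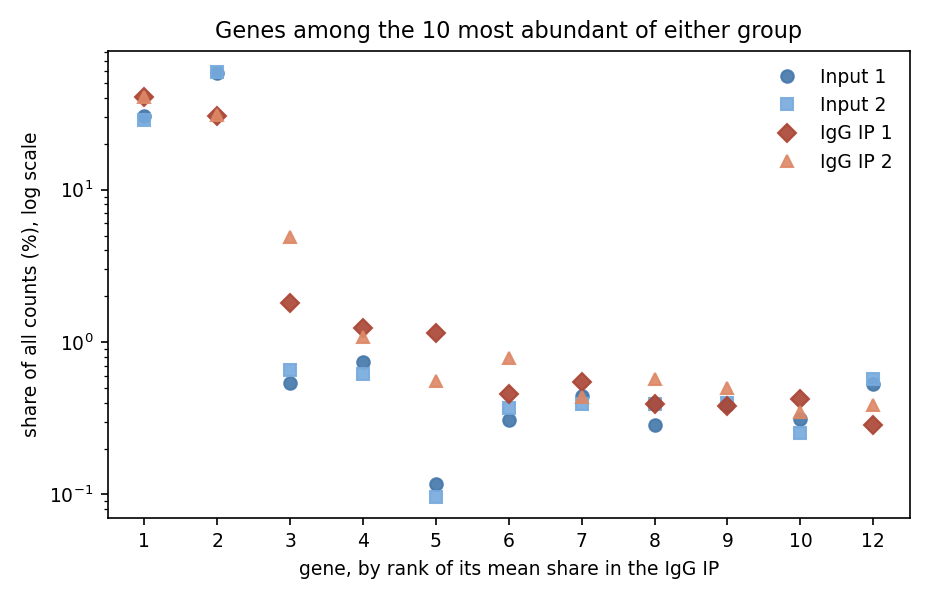
Share of all counts (%, log scale) in each library for the 11 genes that were among the 10 most abundant of either group, ordered by their rank in the IgG IP. The genes at ranks 3 and 5 of the IgG IP lie farthest above Input, with mean shares 5.58 and 7.97 times as large, and the genes at ranks 1 and 2 change order between the groups.

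ENSG00000202198.1, ranked 3 in the IgG IP and 4 in Input, took 1.81% and 4.85% of the counts of IgG IP replicates 1 and 2 and 0.536% and 0.658% of the Input replicates. Both IgG IP libraries lay above both Input libraries, but they differed from each other far more than the Input libraries did. Its log2 fold change over Input was 1.03 ± 0.50 (SE; edgeR adjusted p = 0.745), and without IgG IP replicate 2 it was -0.051 (edgeR adjusted p = 0.996), so the direction relative to the bulk rested on that library. Set against the second gene of the same library, its counts were 0.0446 and 0.119 times as many in the IgG IP, against 0.0176 and 0.0230 times in Input. In the LARP1 IP its share of all counts was 0.524% and 0.496%, just below the Input libraries, but this depends on the first and second gene. Of the counts outside these genes it held 0.714% and 0.629% in the LARP1 IP, against 4.72% and 5.43% in Input. Set against the second gene it had 0.0380 and 0.0398 times the counts in the LARP1 IP, above both Input libraries.

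ENSG00000070756.13, ranked 5 in the IgG IP and 14 in Input, took 1.15% and 0.552% of the IgG IP counts and 0.117% and 0.0968% of the Input counts. Its mean share was 7.97 times as large in the IgG IP (0.853% ± 0.43 against 0.107% ± 0.015, SD, n = 2 each), and the groups did not overlap. Relative to the bulk its log2 fold change was 1.43 ± 0.43 (SE; edgeR adjusted p = 0.639). In the LARP1 IP it took 1.10% and 0.567% of all counts, within the range of the IgG IP libraries. The first and second gene together took only 26.6% and 21.3% of the LARP1 IP libraries, against 70.9% and 71.5% of the IgG IP libraries. This match in share is therefore not a match in level relative to other genes. Set against the second gene, it had 0.0285 and 0.0135 times the counts in the IgG IP and 0.00386 and 0.00337 times in Input. In the LARP1 IP it had 0.0801 and 0.0456 times, above both IgG IP libraries.

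These 2 IDs and the 2 most abundant genes are the only ones printed, chosen among the abundant genes after their values were seen. Of the first and second gene, ENSG00000210082.2 had a log2 fold change of -2.45 ± 0.41 (SE; edgeR adjusted p = 0.165) and ENSG00000211459.2 one of -1.05 ± 0.40 (edgeR adjusted p = 0.734). When libraries were scaled to their total counts instead, the log2 median over all genes went from 0.0082 to 1.51, and these genes stood at -0.94 and 0.46 (edgeR adjusted p = 0.00992 and 0.0239). Both genes thus lay below the bulk under either scaling, since total counts move all genes alike; only the sign of the second gene's value changed. Each library was also left out in turn, but a group of 2 then rests on the other library, so the values show nothing about stability. Without IgG IP replicate 1 or 2 the log2 fold change of the first gene was -2.33 and -2.61. It was -2.40 and -2.51 without Input replicate 1 or 2. Without LARP1 IP replicate 1 or 2 it was -2.45 and -2.44. The gene passed the threshold by edgeR without a low-count filter (-2.30, adjusted p = 1.12e-13). It did not pass by edgeR with upper-quartile factors (-2.49, adjusted p = 0.237) or a filter at 50 counts (-2.50, adjusted p = 0.0961).

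The 7 abundant genes that lay lower in the IgG IP relative to the bulk had mean shares of 0.282% to 0.677% in Input and 0.335% to 1.15% in the IgG IP. Together they took 3.004% and 2.998% of the Input libraries, against 3.72% and 4.10% of the IgG IP libraries. Their log2 fold changes ran from -2.21 to -0.61 with TMM (edgeR adjusted p = 0.270 to 0.833). With total counts, which move all genes alike, they ran from -0.72 to 0.86, all below the median of 1.51. Set against the second gene within each library, 3 of the 7 were lower in both IgG IP libraries than in both Input libraries, 1 was higher, and 3 overlapped. The gene ranked 5 in Input stood apart: at 0.286% and 0.385% of the IgG IP, with 0.530% and 0.574% of Input, it was the only one of the 7 with a lower share of all counts in the IgG IP. Against the second gene its mean ratio was 0.441 times that in Input, while the other 6 lay between 0.819 and 1.32 times.

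Across the genes tested, the IgG IP profile was close to that of Input after TMM scaling. Of the 10788 genes, 9432 (87.4%) then had a fitted fold change within 2-fold either way. The quartiles were -0.40 and 0.42 around a median of 0.0082 on the log2 scale. TMM itself sets this centre near 0, and with total counts the median was 1.51, so only the width around the centre is informative. The Spearman correlation across these genes was 0.842 to 0.876 between an IgG IP and an Input library, 0.886 between the IgG IP libraries, 0.865 between the Input libraries, and 0.672 to 0.814 between an IgG IP and a LARP1 IP library. Genes are not independent replicates, and all libraries share the same abundant genes and the counting error of rare ones, so these values are a description.

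**Figure D3:**
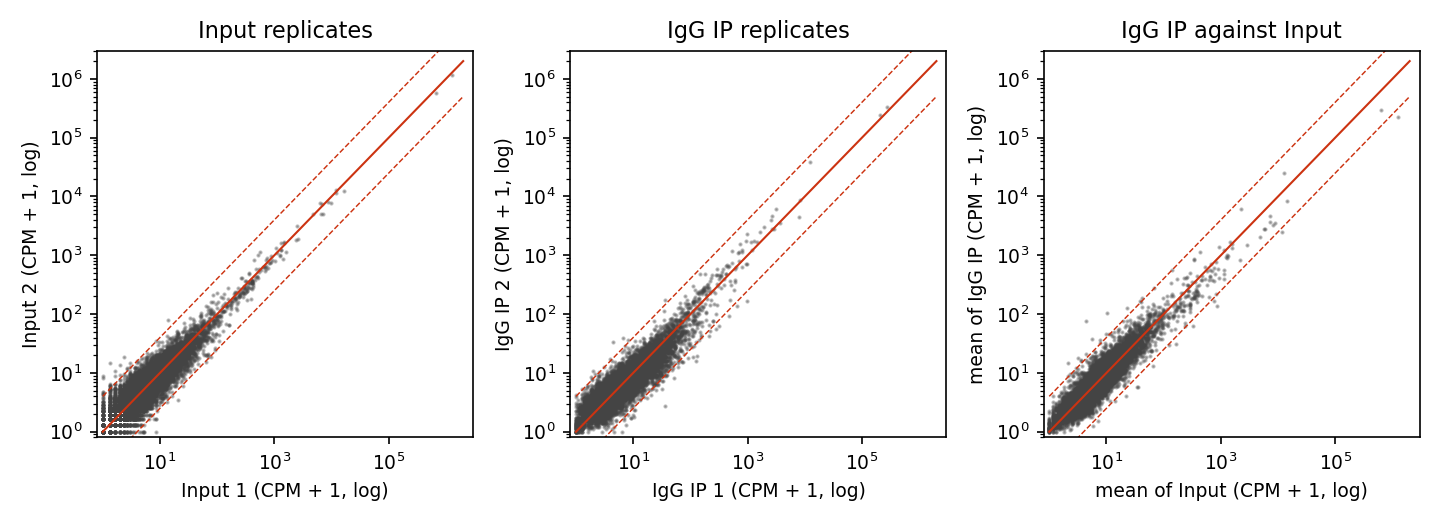
TMM-scaled CPM, the counts scaled to library size (CPM + 1, log axes) of the 10788 tested genes, for the 2 Input libraries, the 2 IgG IP libraries, and the group means of IgG IP against Input; each point is a gene, the solid line marks equal values and the dashed lines 4-fold. The first gene lies beyond the 4-fold line in the comparison of groups, and the IgG IP replicates scatter past 4-fold at higher levels than the Input replicates do.

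By edgeR's quasi-likelihood test 0 genes were higher and 0 lower in the IgG IP at the adjusted threshold, and the smallest adjusted p was 0.165. An unadjusted p under 0.05 was reached by 725 genes (6.72%), 384 higher and 341 lower. The median SE of a log2 fold change was 0.52 (quartiles 0.45 and 0.65), so a difference of 2-fold was within about 2 SE for a typical gene and is not shown to be absent. Fitted values past 4-fold were found for 125 genes above and 51 below Input. The absence of calls depended on the libraries in the fit: 43 genes were higher and 9 lower without IgG IP replicate 2, 3 and 11 without IgG IP replicate 1, 5 and 7 without LARP1 IP replicate 1, and 3 and 9 without LARP1 IP replicate 2. It also depended on the scaling, since total counts gave 5808 higher and 6 lower genes.

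The order of the libraries was also counted, with no test. Both IgG IP libraries lay above both Input libraries for 2068 genes (19.2%) and below both for 2084 (19.3%). With total counts these numbers were 9462 and 31. Of the 2961 genes that averaged 10 CPM or more in the IgG IP, 810 lay above Input, with a median log2 fold change of 0.72. Of the 2848 that did so in Input, 732 lay below, with a median of -0.66. Some genes take such an order by chance, so these counts alone do not show a difference between the groups. Among the 810, IgG IP replicate 1 was the higher of the 2 IgG IP libraries for 529 genes. In replicate 1, 255 of the 810 were at least 2-fold above mean Input, and in replicate 2, 81 were. Among the 732, replicate 1 was the higher for 347 and the lower for 385, and the numbers at least 2-fold below Input were 141 and 146. Over all 3420 genes at 10 CPM in either group, replicate 1 was the higher for 1976 and the lower for 1444, and 566 were at least 2-fold from Input in replicate 1 and 290 in replicate 2. Since the 810 passed the 10 CPM limit through the IgG IP and the 732 through Input, the replicate features of these sets are not compared. Among the 810, both LARP1 IP libraries lay below both IgG IP libraries for 436 genes and above both for 101; over the 3420 genes these numbers were 1007 and 1011. Choosing genes by a high level in the IgG IP favours the first of these outcomes, so the count is a description.

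The 12 highest of the 810 genes had log2 fold changes of 2.30 to 4.45 (edgeR adjusted p = 0.234 to 0.623), with medians of 27.6 CPM (IgG IP), 3.38 CPM (Input) and 4.33 CPM (LARP1 IP). In 10 of the 12 IgG IP replicate 1 was the higher, 9 of the 12 differed by at least 4-fold between the IgG IP libraries, and 0 of the 12 did so between the Input libraries. For 10 of the 12 both LARP1 IP libraries lay below both IgG IP libraries. The 12 lowest of the 732 genes, which include the first gene, had log2 fold changes of -2.86 to -2.17 (edgeR adjusted p = 0.165 to 0.722), with medians of 21.1 CPM (IgG IP) and 113 CPM (Input). Of these, 3 differed by at least 4-fold between the IgG IP libraries and 0 between the Input libraries. The IgG IP replicates differed by a median of 4.44-fold for the 12 highest and 1.71-fold for the 12 lowest, and the Input replicates by 1.53-fold and 1.98-fold. The 12 highest were chosen through their IgG IP mean and the 12 lowest through Input, so these values are a description.

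DESeq2 and a fit of only the IgG IP and Input libraries made calls that the fit of all 6 libraries did not. DESeq2 called 20 genes higher (1.11%) and 17 lower (0.947%) among 1795 genes to which it gave an adjusted p. The edgeR fit of 4 libraries called 5 higher (0.051%) and 8 lower (0.0816%) of 9802, and 4 genes were called by both, among them the first gene (edgeR adjusted p = 0.00766 in the fit of 4 libraries; DESeq2 adjusted p = 6.67e-09). Of the 20 genes DESeq2 called higher, 19 were more abundant in IgG IP replicate 1 than in replicate 2, 15 of them at least 2-fold. Their median log2 fold change by edgeR was 2.06 with both replicates, 2.65 without IgG IP replicate 2 and 1.02 without IgG IP replicate 1. Of the 17 called lower, 15 were lower in replicate 1, and their median of -1.57 became -1.75 and -1.37.

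The level of a gene in the fraction moved with its level in the IgG IP relative to Input. Genes were placed in bins by 1 Input library and the IgG IP mean was set against the other Input library, so that the counting error of the binning library did not enter the ratio (log2 with 1 CPM added to both). Binned on Input replicate 1, the median log2 ratio was 0.0042 for 7909 genes under 10 CPM, 0.064 for 2205 genes at 10 to 30 CPM and 0.066 for 498 genes at 30 to 100 CPM. It was -0.28 for 89 genes at 100 to 300 CPM, -0.50 for 60 genes at 300 to 1000 CPM and -0.83 for 27 genes at 1000 CPM and over. Binned on Input replicate 2, the upper bins gave -0.41 (102 genes), -0.68 (48 genes) and -0.88 (26 genes). The abundant genes of Input thus lay lower in the IgG IP relative to the bulk in both versions, and the highest bin had 9 of 27 and 12 of 26 genes at least 2-fold lower. With total counts the medians were above 0 in every bin, but the shift from TMM differed between bins. Binned on Input replicate 1, the median was then 1.38 at 10 to 30 CPM, above that of the lowest bin. It was 1.45 at 30 to 100 CPM and 0.61 in the highest bin. Binned on Input replicate 2, it was 1.15 in the lowest bin, 1.53 and 1.51 in these middle bins and 0.70 in the highest. The decline from 30 CPM upward was thus seen with either scaling, but the course below that level was not the same.

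**Figure D4:**
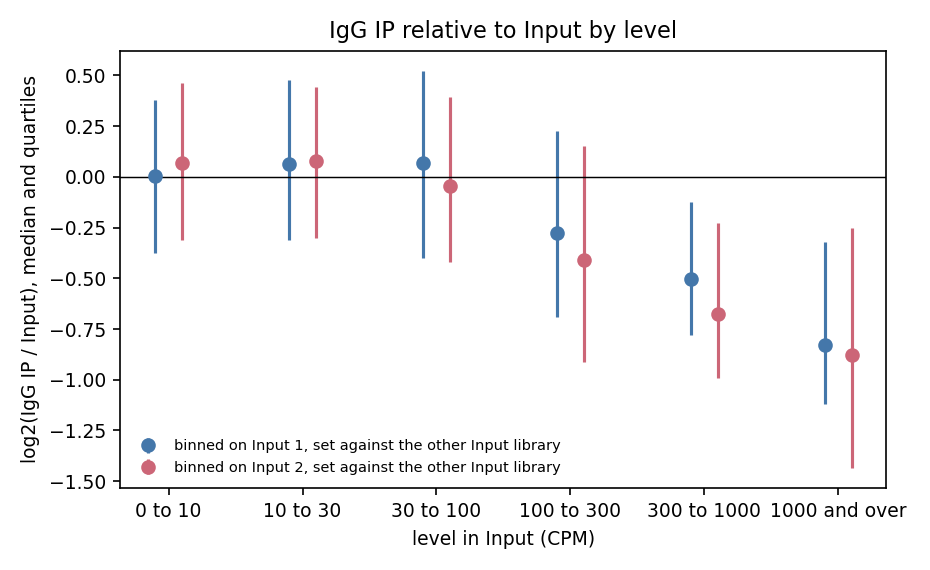
Median log2 ratio of the IgG IP mean to 1 Input library (points) with the quartiles over genes (lines), by level in the other Input library (CPM). The medians lie near 0 up to 100 CPM and reach -0.83 and -0.88 in the highest bin with TMM scaling; with total counts those of the highest bin are 0.61 and 0.70.

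Large differences between replicates were more frequent in the IgG IP than in Input, although the correlation across genes was not lower there. Of the 2961 genes that averaged 10 CPM or more in the IgG IP, 52 (1.76%) differed by at least 4-fold between its libraries, 46 of them higher in replicate 1 and 6 in replicate 2. Among 2848 such genes of Input, 8 (0.281%) did, 4 in each direction. At 50 CPM and over, where counting error is smaller, the numbers were 13 of 366 genes (12 and 1 in the 2 directions) and 0 of 335. The LARP1 IP libraries, at 10 CPM, had 58 of 3079 genes past 4-fold (1.88%). Input had fewer counts behind a given CPM than the IgG IP, since fewer of its counts lay outside the first and second gene, so its smaller spread did not go with greater depth.

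The counts of the IgG IP libraries differed by 18.6 times sampling noise (chi-square per degree of freedom over 20003 genes). The value was 2.98 in Input and 17.6 in the LARP1 IP, and this measure also grows with the counts per gene. Leaving out the first and second gene, 10 genes carried 42.8% of that statistic in the IgG IP and 12.3% in Input. The median absolute log2 difference between replicates at 10 CPM and over was 0.43 in the IgG IP, against 0.38 in Input. At 50 CPM and over it was 0.55 in the IgG IP (366 genes), against 0.28 in Input (335 genes). The LARP1 IP had 0.48 and 0.58 at these 2 limits, so a wider spread than in Input was not particular to the control serum. At 10 CPM and over, the 5 genes highest in replicate 1 relative to replicate 2 differed by 6.17- to 12.8-fold, and the 5 highest in replicate 2 by 4.06- to 7.39-fold (1 CPM added). Of the first 5, 3 had a positive fitted log2 fold change over Input, and of the other 5, 2 did. Of these other 5, 3 were also higher in replicate 2 of both Input and the LARP1 IP. Their Input values were 7.36 to 12.7 CPM in replicate 1 and 33.7 to 77.1 CPM in replicate 2. In the LARP1 IP they were 3.77 to 5.55 CPM and 25.6 to 35.1 CPM. The remaining 2 were lower in Input replicate 2 than in Input replicate 1. The difference of the 3 genes was thus not particular to the IgG IP, and its cause was not tested.

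IgG IP replicate 1 also had the flattest profile. In it 189 genes were needed to reach 50% of the counts outside the first and second gene, against 50 in IgG IP replicate 2 and 44 and 48 in Input. ENSG00000202198.1 alone held 6.197% and 17.0% of these counts in the IgG IP, against 4.72% and 5.43% in Input. Without it the numbers of genes were 262 and 142 for the IgG IP and 56 and 64 for Input, so both IgG IP libraries then lay above both Input libraries.

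At equal depth the IgG IP held fewer different genes than Input. For 700000 counts drawn outside the first and second gene, the expected number of genes with a count, computed exactly, was 14230 and 14842 for the IgG IP, 15555 and 16128 in Input and 12596 and 12125 in the LARP1 IP. The IgG IP libraries lay below both Input libraries, and the exact permutation test of 2 libraries against 2 gave its smallest two-sided p of 0.33. At full depth, where the IgG IP had more counts outside the first and second gene than Input, 12433 genes had a count in all 4 libraries. A further 689 had counts in both IgG IP libraries and none in Input, but with at most 23 counts in a library and a median of 4 over both. The 304 genes with counts in both Input libraries and none in the IgG IP had at most 7 counts in a library.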

How the data were processed

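Per the labels, TRIzol was used to purify the RNA, and the library kit was a stranded one for mRNA, used without its poly(A) step. The deposited files hold raw read counts per versioned Ensembl gene ID, 1 file per library, neither normalized nor pooled by the authors. The submitters' processing notes name GRCh38 as the build and featureCounts, Subread 1.20.6, TopHat2 2.1.1, Bowtie2 and CASAVA 1.8 as tools. For the annotation release, strand use and multimapped reads, the setting is not given in the sources used here, so counts of near-identical, overlapping or antisense genes may be shared between IDs.

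Groups were taken from sample titles. Genes were kept by filterByExpr of edgeR 4.0.16 (R 4.3.3; minimum count 10), which left 10788 genes. The 6 libraries, scaled by TMM, entered 1 quasi-likelihood fit on the group alone (3 residual degrees of freedom), and the contrast was IgG IP minus Input. Each SE was taken as the absolute log2 fold change over the square root of F. The fit was tested on simulated data. DESeq2 1.42.0 was an alternative. The members, lists and rules were chosen with earlier results of these data known. The rule for named genes took the 10 most abundant genes of each group, the 12 largest differences without overlap in each direction, genes called by other fits and the 5 largest replicate differences in each direction. Without symbols, 4 IDs are printed and the rest are summarised. The gene and marker lists were not applied, because the IDs could not be named.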

Additional observations from a re-analysis of the deposited data

How the results depend on the processing

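The calls depended on the fit. Against 0 higher and 0 lower genes by edgeR with TMM, the counts were 5808 and 6 with total counts, 0 and 1 with total counts after both most abundant genes were dropped, 20 and 17 with DESeq2, 56 and 17 without a low-count filter, and 5 and 8 in the fit of 4 libraries. Leaving out each library in turn gave 0 to 43 higher and 0 to 11 lower; the lone library of a group is then assumed to vary like the other groups. The counts stayed at 0 by edgeR with upper-quartile factors (720 genes at an unadjusted p under 0.05), TMM without the 2 most abundant genes (768), a filter at 50 counts (462), and without Input replicate 1 (403) or 2 (459). A replicate block, added to the fit of all libraries, gave 39 higher and 35 lower genes, with ENSG00000210082.2 among the lower (edgeR adjusted p = 0.0223). The labels give no shared batch for a number. The deviations of same-numbered IgG IP and Input libraries correlated at 0.271. Each IgG IP library correlated better with the Input library of its number (Spearman 0.876 and 0.875) than with the other (0.842 for both). LARP1 IP replicate 1 did so too (0.863 against 0.789), but LARP1 IP replicate 2 did not (0.679 against 0.719). Set against the IgG IP, both LARP1 IP libraries correlated better with the library of their own number. The values were 0.814 against 0.787 for LARP1 IP replicate 1 and 0.772 against 0.672 for replicate 2. These values are at most a hint, and not a pairing stated by the labels.

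ENSG00000211459.2 stood at -1.05 and, with total counts, at 0.46, which restates the shift of all genes (median 0.0082 to 1.51); ENSG00000202198.1 went from 1.03 to -0.051 without IgG IP replicate 2, in a range of -0.051 to 1.64 over the libraries left out. The difference in share of the genes ranked 3 to 12 (IgG IP minus Input) was 4.49 percentage points of all counts and -4.49 of the counts outside the 2 most abundant genes. Genes without overlap became 9462 and 31 with total counts, and genes past 4-fold between replicates became 13 (IgG IP) and 0 (Input) at 50 CPM. For shares and the ratio of the first and second gene, leaving out 1 of 2 libraries moves a mean by a fixed part of its SD and shows nothing about stability. Apart from construction, the cause was not tested. The settings TMM without the 2 most abundant genes, 50 CPM, and total counts for overlaps and level bins were chosen after seeing the data. The planned list medians were not run, since IDs could not be named. Counts outside the 2 genes limit Input most (at most 778680).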
